A study of Mus musculus with 54 samples.

Results

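Single-nucleus RNA-seq was compared with single-cell RNA-seq in kidneys of untreated male Balb/c mice, to ask which kidney cell types and which transcripts each of the workflows recovered. The comparison took 6 of the 54 samples of the series, chosen by their labels, with 3 libraries of nuclei (MJ06, MJ07 and MJ08) and 3 libraries of cells (MJ03, MJ04 and MJ05). The mice were 18 weeks old and came from 1 litter, and each library was made from a kidney of a different mouse within its workflow. For the cells, the kidneys were dissociated on ice with a cold-active protease of Bacillus licheniformis and the suspension was profiled fresh. For the nuclei, whole kidneys were flash frozen and stored frozen, then lysed, and the nuclei were washed 3 times at 500g and sorted on DAPI fluorescence (the SN_FANS_3x500g protocol). All 6 libraries were made with 10x chemistry version 2, in which a barcode marks the droplet and a unique molecular identifier (UMI) marks the molecule. Nuclei were frozen, lysed and sorted while cells were digested and never frozen, and the submitters counted introns and exons for nuclei but exons alone for cells, so that the part of the compartment, of the preparation and of the counting cannot be told apart.

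A nucleus holds newly made RNA, much of it with its introns still in place, together with long noncoding RNAs that stay near chromatin. Most mature mRNA sits in the cytoplasm, where ribosomes translate it, and stable short mRNAs for ribosomal proteins or mitochondrial enzymes collect there. In the kidney most cells are tubule epithelium. The proximal tubule reabsorbs glucose, amino acids, phosphate and filtered protein, the thick ascending limb and the distal convoluted tubule reabsorb salt, and the connecting tubule and the collecting duct, made of principal and intercalated cells, set the final salt, water and acid content of the urine. Podocytes and endothelial cells form the filter of the glomerulus, and macrophages, lymphocytes and fibroblasts lie between the tubules.

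The cell libraries held 2467, 3109 and 3577 barcodes and the nuclei libraries 8611, 7629 and 7609 barcodes. Their totals were 1644357, 2573720 and 1362810 UMIs for cells and 9390078, 7678145 and 7629138 UMIs for nuclei. All values below are given in this order, replicates 1 to 3 of cells and then of nuclei. The median barcode held 375, 452 and 258 genes in the cell libraries and 707, 658 and 671 genes in the nuclei libraries, a mean difference of 317 genes with no overlap (exact two-sided permutation test, p = 0.1, the smallest value that 3 libraries against 3 can give). When barcodes were thinned to 500 UMIs, the medians were 360, 354 and 355 genes in cells and 371, 373 and 376 genes in nuclei, a difference of 17 (exact p = 0.1). Thinning left out the shallower barcodes, and 55.2, 67.9 and 15.3% of the cells and 94.0, 94.5 and 94.5% of the nuclei entered. The difference was thus smaller among these deeper barcodes at equal depth. In the proximal tubule-like class defined below, the thinned medians were 352, 350 and 344 genes in cells and 373, 375 and 381 genes in nuclei.

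A zero in these matrices needs care. The methods of the study keep genes detected in at least 10 barcodes, and the tables write a removed gene as 0. Of the genes above 0 in a library, from 97.13 to 98.77% were in 10 or more of its barcodes and the others in fewer, so that the limit does not hold for each gene as deposited. A gene listed at 0 in a whole library was thus seen in few barcodes, and not necessarily in none. Of the 16524 genes listed, 9317 were above 0 in all 6 libraries. They took 97.4% of the UMIs of the cells and 90.3% of the UMIs of the nuclei. A further 5145 genes were listed at 0 in all 3 cell libraries and 322 genes in all 3 nuclei libraries, and the cell libraries held fewer barcodes and UMIs. For this reason the genes with values here are mostly those above 0 in all 6 libraries, a choice made after values had been seen.

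Barcodes were clustered separately for cells and for nuclei, and clusters were named from marker genes. The names stand for barcodes with those markers, podocyte-like for podocytes and so on. The clusters were named from these markers, so that their levels describe the classes and do not test the names. All 9 markers of the thick ascending limb, 10 of the principal cell, 12 of the intercalated cell, 10 of the podocyte and 12 of the endothelial class were higher in their class than in the other classes, in cells and in nuclei alike. For the proximal tubule this was so for 13 of 14 markers in cells and 14 of 14 in nuclei, and for the connecting tubule and the distal convoluted tubule for 7 of 8 in cells and 8 of 8 in nuclei. Clusters with too few markers, or with markers of more than 1 lineage, were left unnamed. All unnamed clusters together held 2.8, 2.54 and 3.27% of the cells and 4.73, 4.69 and 4.8% of the nuclei.

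Salt-reabsorbing segments took a larger share of the nuclei, and fibroblast clusters were named in nuclei alone. Intercalated cells, podocytes and immune cells took a larger share of the cells. Thick ascending limb-like barcodes made up 4.38, 4.95 and 6.54% of the cells and 13, 14.4 and 12.7% of the nuclei (2.53-fold, log2 fold change 1.34, standard error 0.17, adjusted p = 0.000732). Distal convoluted tubule-like barcodes made up 2.59, 3.28 and 3.97% of the cells and 6.71, 7.69 and 6.62% of the nuclei (2.13-fold, log2 fold change 1.09, standard error 0.19, adjusted p = 0.00163). No library of one kind overlapped the other in either segment. Clusters with the fibroblast name were found in nuclei only, at 4.99, 2.87 and 2.92%, whereas 0 of 9153 cells were in one (adjusted p = 0.000732). Against a floor of 3 barcodes, 0.0328% of the cells, this was at least 111-fold higher in nuclei. The floor covers counting error only and limits clusters with the name, not single cells. Of the 10 fibroblast markers 6 were listed at 0 in all cell libraries, and a name needed 3 markers. A cell cluster could thus hardly carry the name, so that this p and this bound tell little of the share. By marker score, as given below, 1.34, 1.48 and 1.76% of the cells were fibroblast-like.

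Intercalated cell-like barcodes, which secrete acid or bicarbonate, made up 5.63, 6.24 and 7.41% of the cells and 2.91, 3.33 and 3.4% of the nuclei (log2 fold change −1.0, standard error 0.17, adjusted p = 0.00144). Podocyte-like barcodes made up 3.2, 2.83 and 6.54% of the cells and 0.465, 0.433 and 0.25% of the nuclei, 10.9-fold lower in nuclei (log2 fold change −3.45, standard error 0.47, adjusted p = 0.000815). The 4 immune classes were named in cells alone. T and NK cell-like barcodes were 4.86, 2.67 and 0.783% of the cells, macrophage-like barcodes 3.73, 2.93 and 1.23%, monocyte-like barcodes 1.91, 1.87 and 2.46% and B cell-like barcodes 2.47, 1.8 and 0.14%. Of 23849 nuclei none was in a cluster of these names, which allows a share of up to 0.0126% for each. For T and NK, monocyte and B cells this was at least 201-fold, 168-fold and 106-fold lower in nuclei (adjusted p from 0.00104 to 0.0145). Without cells replicate 1 the bound for T and NK cells was 132-fold, and without cells replicate 3 that for B cells was 167-fold. These floors cover counting error only, and they limit clusters with a name, not single nuclei. For macrophages no such bound is given, since 1 nuclei cluster of 50 barcodes with macrophage markers stayed unnamed for its proximal tubule markers. With clusters of more than 1 lineage kept under their leading class, macrophage-like barcodes were 0.348, 0.0655 and 0.197% of the nuclei, 12.9-fold lower than in cells (log2 fold change −3.66, standard error 0.73, adjusted p = 0.00227). Cells replicate 3 was lowest in T and NK, macrophage and B cells and highest in podocytes.

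The other classes did not pass the test. The proximal tubule-like class was the largest in every library, with 49.4, 55.9 and 54.0% of the cells and 53.1, 56.3 and 59.3% of the nuclei (log2 fold change 0.08, standard error 0.07, adjusted p = 0.321). Connecting tubule-like barcodes ranged from 4.13 to 5.98% in cells and from 4.46 to 4.98% in nuclei, and principal cell-like barcodes from 3.83 to 4.67% and from 3.9 to 4.42%. Endothelial-like barcodes varied most, with 10.4, 5.18 and 3.61% of the cells and 5.21, 1.14 and 1.1% of the nuclei, and replicate 1 was high in each group (log2 fold change −1.36, adjusted p = 0.129). Without cells replicate 1 the endothelial value was −0.82 (adjusted p = 0.016) and without nuclei replicate 1 it was −2.51 (adjusted p = 0.0162). With the clusters of more than 1 lineage kept under their leading class it was −0.12 (adjusted p = 0.804). Fewer cells of a type and less RNA captured per cell of that type cannot be told apart in such shares.

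**Figure D1:**
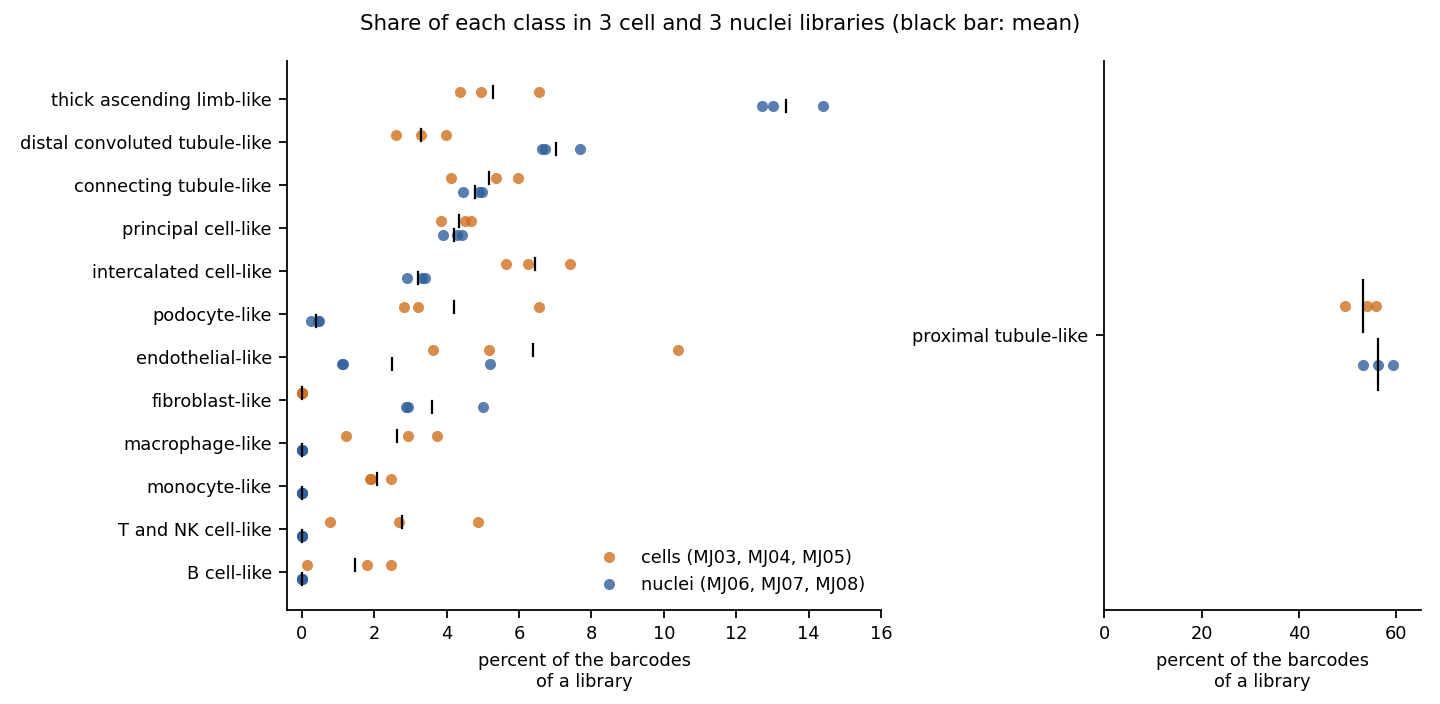
Share of each class in the 3 cell and 3 nuclei libraries, in percent of the barcodes of a library (x axis), with one dot per library and a black bar at the mean. The thick ascending limb-like and distal convoluted tubule-like dots of the nuclei lie to the right of those of the cells, the podocyte-like dots of the nuclei lie between 0.25 and 0.465% and those of the cells between 2.83 and 6.54%.

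The shares depended on how barcodes were named. When each barcode was named by its own marker score instead of by its cluster, 5 classes were higher in nuclei (fibroblast, parietal epithelium, macula densa, urothelium and adipocyte) and 2 were lower (B cell, and mesangial and mural). A class was scored only where 3 or more of its markers were above 0 in a preparation. Macula densa, urothelium and adipocyte did not meet this in cells. No cell could carry these names, so their calls were fixed in advance and tell nothing of the shares. Fibroblasts were then 1.34, 1.48 and 1.76% of the cells and 4.27, 2.73 and 2.87% of the nuclei (log2 fold change 1.10, adjusted p = 0.0126), and B cells 3.24, 2.32 and 1.26% of the cells and 0.697, 0.957 and 1.06% of the nuclei (−1.31, adjusted p = 0.0295). The thick ascending limb (0.26, adjusted p = 0.172), the distal convoluted tubule (0.59, 0.0611), the intercalated cell (−0.56, 0.0607) and the podocyte (−0.80, 0.0664) kept their sign but no longer passed. Macrophages by score were 4.09, 3.09 and 1.68% of the cells and 3.41, 3.79 and 4.44% of the nuclei, and T and NK cells 4.82, 2.89 and 0.28% against 2.0, 1.53 and 1.92%. Neither passed the test (adjusted p = 0.327 and 0.608). A score names every barcode, however few marker UMIs it holds.

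Marker genes were also summed over whole libraries, without clusters. Intercalated cell markers summed to 1619, 2181 and 2187 UMIs per 1000000 UMIs of the library (CPM) in cells and 377, 495 and 435 CPM in nuclei. Distal convoluted tubule markers summed to 741, 795 and 1104 CPM in cells and 2022, 2312 and 2051 CPM in nuclei, and fibroblast markers to 69.3, 52.8 and 91.0 CPM and 468, 212 and 205 CPM. In these 3 sums the libraries of one kind stood apart from the other, on the same side as the shares by cluster. Other sums stood apart although the shares did not pass the test. Connecting tubule markers summed to 5632, 8535 and 5699 CPM in cells and 2133, 2123 and 2011 CPM in nuclei, and principal cell markers to 3243, 2951 and 2068 CPM and 676, 605 and 510 CPM. Proximal tubule markers summed to 6662, 6629 and 7670 CPM in cells and 14440, 15120 and 15520 CPM in nuclei. A sum of markers moves with the level of each marker as well as with the share of a class, so that the sums are no independent measure of the shares. Of 9 fibroblast markers tested 7 were called higher in nuclei, but 5 of these were at 0 in all cell libraries and had to differ once tested. With zeros set to 9 UMIs 4 of the 9 were called higher. Among the immune lists, 4 of 5 B cell, 2 of 2 NK cell, 3 of 4 monocyte and 4 of 9 macrophage markers tested were called lower in nuclei, and 1 macrophage marker was called higher. Over all 14027 genes tested in the library sums 20.4% were called lower in nuclei and 45.5% higher. The 1 T cell marker tested was not called, and T cell sums overlapped, at 196, 95.6 and 0 CPM in cells and 23.6, 23.7 and 23.6 CPM in nuclei. The 4 macrophage markers were C1qa, C1qb and C1qc, which code for the chains of complement C1q, and Cd68, and the 1 called higher was F13a1, which the cell libraries listed at 0 and which lost the call with zeros set to 9 UMIs. B cell markers summed to 444, 295 and 225 CPM in cells and 9.16, 10.7 and 11.9 CPM in nuclei, and macrophage markers to 653, 462 and 195 CPM and 90.5, 100.7 and 102 CPM. Podocyte markers behaved differently from the podocyte share. Their sums overlapped, at 1233, 1225 and 1524 CPM in cells and 1338, 1443 and 1200.0 CPM in nuclei, and 8 of the 10 were called lower in nuclei and 1 was called higher, which was Magi2 (see the podocyte-like class later). Thick ascending limb sums also overlapped, at 3351, 3583 and 3879 CPM against 4012, 4237 and 3514 CPM. CPM refers to the total of a library here. Later it refers, unless stated otherwise, to the total of the genes tested in a class within a library, after TMM scaling. This total is smaller than that of the class, so that such CPM values are not shares of all UMIs of the class.

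Gene expression was compared within classes on UMIs summed per library, with the quasi-likelihood test of edgeR. A gene was called at an adjusted p under 0.05 and a log2 fold change of at least 1 in size, and every fold change is nuclei minus cells, so that a negative value is higher in cells. In the proximal tubule-like class, the deepest, 12130 genes were tested. Of these 5323 were called higher in nuclei (43.9%) and 2749 higher in cells (22.7%), and the median log2 fold change over all tested genes was 0.70. Among the genes called higher in nuclei 1926 were listed at 0 in all cell libraries, and 143 of those called higher in cells were listed at 0 in all nuclei libraries. Of the 8933 tested genes above 0 in all 6 libraries, 2620 were called higher in nuclei (29.3%) and 2586 higher in cells (28.9%), with a median of 0.06. The excess of genes higher in nuclei was thus made up mostly of genes listed at 0 in at least 1 library. Nuclei took 65.9% of all calls as fitted, 76.6% when libraries were scaled by their totals alone, and 52.8% without the genes at 0 in any library. Summed over all barcodes of a library, without classes, 14027 genes were tested, with 6381 called higher in nuclei (45.5%) and 2857 higher in cells (20.4%).

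Among genes above 0 in all 6 libraries with a mean of at least 50 CPM, most of the 10 with the greatest excess in nuclei of the proximal tubule-like class had long bodies made nearly wholly of introns. Fgfr2, a receptor for fibroblast growth factors (chromosome 7, 130162451 to 133123350 in GENCODE M21 on GRCm38, the mm10 build), was at 1.45, 0.958 and 0 CPM in the cell libraries and 483, 429 and 441 CPM in the nuclei libraries (log2 fold change 9.03, standard error 0.33, adjusted p = 1.87e-10). Pde4d, a phosphodiesterase that breaks down cyclic AMP (chromosome 13, 108449948 to 109953461), was at 24.6, 37.4 and 23.3 CPM in cells and 3240.1, 3302 and 3246 CPM in nuclei (log2 fold change 6.80, standard error 0.25, adjusted p = 1.87e-10). The nuclei libraries lay within a narrow band for both genes and far above all cell libraries. The annotated body of Fgfr2 is very long, and with introns counted in nuclei, RNA from anywhere in such a body can count for the gene. The part of this in the value of Fgfr2 was not tested. Kcnq1, a potassium channel gene (chromosome 7, 143106362 to 143427042), was at 0, 0 and 4.37 CPM in cells and 138, 122 and 135 CPM in nuclei (6.69). A gene above 0 in a whole library can be at 0 in a class, as Kcnq1 was in 2 cell libraries and Fgfr2 in 1, and the size of their folds rests on few UMIs in cells. Magi2, a scaffold protein best known from the podocyte slit diaphragm (chromosome 5, 19227036 to 20704792), was at 14.5, 9.58 and 18.9 CPM in cells and 865, 909.6 and 797 CPM in nuclei (5.96). Esrrg, a nuclear receptor that drives genes of mitochondrial energy metabolism (chromosome 1, 187608791 to 188214885), was at 28.9, 53.7 and 43.7 CPM in cells and 1864, 2019.9 and 1910.3 CPM in nuclei (5.49). Arl15, Fhit and Sugct had log2 fold changes of 6.00, 5.96 and 5.72. A gene with no introns was among these as well. Gm26917, annotated as a long intergenic noncoding RNA of 1 exon (chromosome 17, 39843013 to 39846341), was at 5.79, 6.71 and 16.0 CPM in cells and 309, 636 and 585 CPM in nuclei (5.80), and 1700112E06Rik, which was not matched to the annotation, had a log2 fold change of 7.02. All of these 10 genes were called higher in nuclei in all 8 classes tested.

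Of the 10 genes with the greatest excess in cells by the same rule, 5 coded for ribosomal proteins. Rpl35, a protein of the large ribosomal subunit (chromosome 2, 39001580 to 39005624), was at 2062, 2425 and 2494 CPM in the cell libraries and 2.75, 4.76 and 4.98 CPM in the nuclei libraries (log2 fold change −9.13, standard error 0.28, adjusted p = 1.07e-10). Gapdh, an enzyme of glycolysis (chromosome 6, 125161715 to 125166467), was at 1966, 2037 and 1611 CPM in cells and 9.11, 9.35 and 7.88 CPM in nuclei (log2 fold change −7.73, standard error 0.23, adjusted p = 1.07e-10). For both genes every cell library lay far above every nuclei library. Cox17, a copper chaperone of cytochrome c oxidase, was at 663, 693 and 729.9 CPM in cells and 2.46, 5.10 and 4.02 CPM in nuclei (−7.50), but 99.2% of its exon bases lie inside another annotated gene body on the same strand. Rpl21 (−7.45), Rpl15 (−6.86), Fau (−6.68) and Rps27 (−6.60) are ribosomal too, and Ier3ip1 (−6.49) codes for a small membrane protein of the endoplasmic reticulum. Hbb-bs, a beta globin of red blood cells, was at 2571, 2084 and 3045 CPM in cells and 33.3, 25.8 and 28.4 CPM in nuclei (−6.45), and Gm10709 (−6.45) is annotated as a processed pseudogene. Ribosomal protein genes and Gapdh have many near-identical pseudogene copies, among which reads can split, so that their exact values may be uncertain. This was not tested. All 10 were called higher in cells in all 8 classes.

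**Figure D2:**
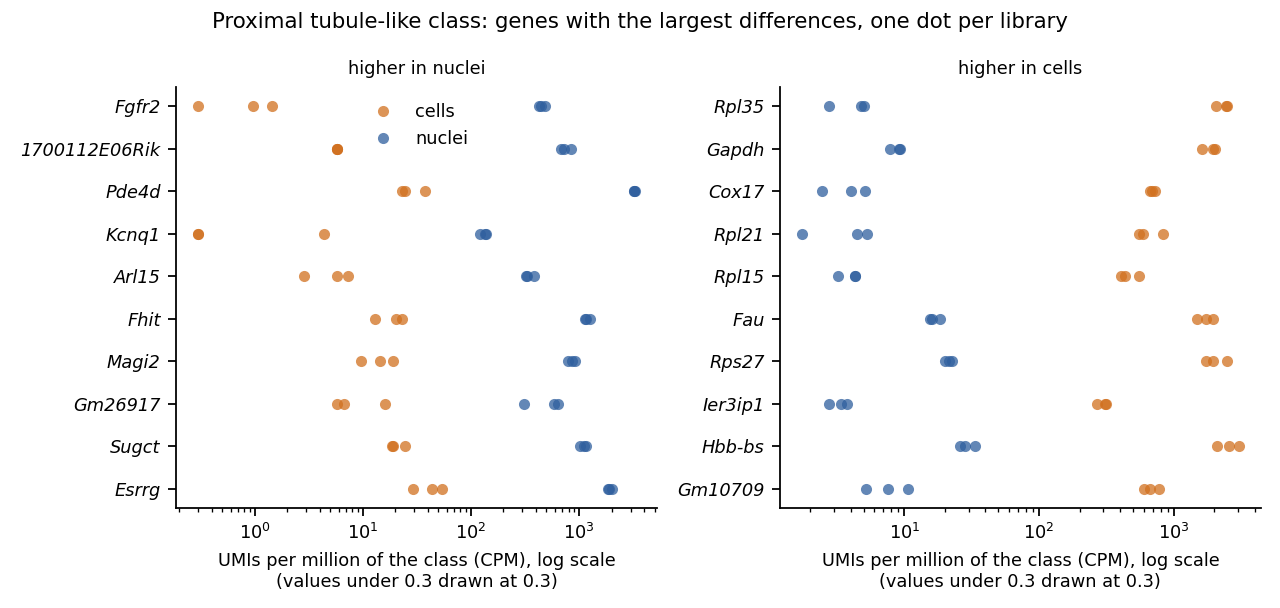
CPM (log scale on the x axis) of the genes with the largest differences in the proximal tubule-like class, with one dot per library, genes higher in nuclei on one panel and genes higher in cells on the other. The dots of cells and nuclei are apart for every gene shown, as for Rpl35 with 2062 to 2494 CPM in cells and 2.75 to 4.98 CPM in nuclei, and values under 0.3 CPM are drawn at 0.3.

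A list of long noncoding RNAs drawn up as nuclear was higher in nuclei. Of 17 listed, 9 were tested in the proximal tubule-like class and all 9 were called higher in nuclei, beside 43.9% of all genes tested, 6 of them above 0 in all 6 libraries. This did not hold for long noncoding RNAs at large. Of the 59 genes annotated as lincRNA and above 0 in all 6 libraries 18 were called higher in nuclei (30.5%) and 14 higher in cells (23.7%, median −0.10), close to the 29.3 and 28.9% of all such genes, and of 64 annotated as antisense 17 were called on each side. Malat1, which stays in nuclear speckles, was at 35825, 49865 and 65707 CPM in the cell libraries and 150110.0, 133630.0 and 123110.0 CPM in the nuclei libraries (log2 fold change 1.43, standard error 0.42, adjusted p = 0.00645). Neat1, the scaffold RNA of paraspeckles, was at 668, 663 and 910.5 CPM in cells and 3968, 3735 and 3589.5 CPM in nuclei (log2 fold change 2.33, standard error 0.20, adjusted p = 2.04e-07). Kcnq1ot1, an imprinted antisense RNA, was at 18.8, 33.5 and 43.7 CPM in cells and 206, 264 and 234 CPM in nuclei (2.87), Snhg11 at 79.6, 77.6 and 105 CPM in cells and 541, 504 and 542 CPM in nuclei (2.61) and Airn at 79.6, 65.2 and 87.4 CPM in cells and 223, 200.0 and 193 CPM in nuclei (1.42). Malat1 had the highest levels and Gm26917 the largest fold change of the 6. Gm26917 is described here by its annotation only, and the origin of its UMIs was not tested. Ftx and Jpx, neighbors of the X-inactivation center, were each listed at 0 in 1 cell library, and Pvt1 in all 3, and no fold is given for them.

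Genes of nephron transcription factors were mostly higher in nuclei. Of 23 tested in the proximal tubule-like class, 17 were called higher in nuclei and none higher in cells, beside 43.9 and 22.7% of all genes tested, with a median of 2.29 against 0.70. Among the 20 above 0 in all 6 libraries the count was 14, beside 29.3% of all such genes, with a median of 1.90 against 0.06. Besides Esrrg these were led by Glis3 (4.30), a Krüppel-like zinc finger factor, at 31.8, 39.3 and 48.1 CPM in cells and 839.9, 823 and 689 CPM in nuclei. Pax2 (3.55) and Pax8 (2.77), which specify the renal lineage, were also called, with Pax8 at 68.0, 52.7 and 48.1 CPM in cells and 318, 374 and 452 CPM in nuclei. Nfib (2.81) and Nfia (2.21), of the nuclear factor I family, were called as well. Hnf4a, the master regulator of proximal tubule identity, was not called, at 343, 378 and 385 CPM in cells and 232, 248 and 268 CPM in nuclei (−0.56, adjusted p = 0.00232). Maf (−0.77) and the glucocorticoid receptor Nr3c1 (0.25) were not called either. Factors that act in the same cells were thus on both sides of the median.

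Splicing regulators and genes known to retain introns were called higher in nuclei in 14 of 24 cases, beside 43.9% of all genes tested, with a median of 1.19 against 0.70. In the thick ascending limb-like class 7 of 24 were called (36.0% of all genes tested) and in the distal convoluted tubule-like class 8 of 24 (38.5%), which is below the share of all genes. Of the 23 above 0 in all 6 libraries 14 were called and none was called higher in cells (median 1.23 against 0.06). Mlxipl, a glucose-sensing transcription factor on this list for its retained introns, was at 96.9, 93.0 and 131 CPM in cells and 579.8, 639 and 703 CPM in nuclei (2.59). Luc7l2 (2.28), Paxbp1 (2.08) and the kinase Clk1 (1.97), which phosphorylates splicing factors, were next. Srsf5 (−0.07), Srsf6 (0.23), Son (0.25) and Ddx5 (0.29) were not called. Hnrnpu was listed at 0 in all nuclei libraries while cells held 195 to 224 CPM, so that no fold is given.

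Cytosolic ribosomal protein genes were higher in cells as a group. Of 83 tested in the proximal tubule-like class 82 were called higher in cells, beside 22.7% of all genes tested, and none higher in nuclei, with a median of −4.26 against 0.70 over all genes tested. Of 25 translation factors 22 were called higher in cells, among them Eif1 (−3.94) and Eif3k (−3.85), with a median of −2.75. Nuclear-encoded subunits of the respiratory chain and ATP synthase showed the same side, with 77 of 80 called higher in cells and a median of −4.32. Cox7a1, a subunit of cytochrome c oxidase, was at 137, 182 and 216 CPM in cells and 2.75, 3.06 and 1.45 CPM in nuclei (−6.19), and Ndufc1, a subunit of complex I, had −6.00. The 2 genes of this list called higher in nuclei were Atp5s (1.44) and Atp5sl (1.36), which carry an ATP synthase name. Of 36 proteasome subunits 29 were called higher in cells (median −2.13), led by the core subunits Psmb3 (−4.43) and Psmb5 (−3.97). Mitochondrially encoded genes were not analysed here.

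Other short mRNAs lay on the same side. All 12 genes of the actin cytoskeleton list were called higher in cells (median −3.13), beside 22.7% of all genes tested and a median of 0.70, with Actb at 1386, 1759 and 1410.2 CPM in cells and 88.8, 74.6 and 59.1 CPM in nuclei (−4.35) and the actin-binding proteins Cfl1 (−4.10) and Pfn1 (−3.96). The 4 metallothionein and ferritin genes were all called, with the ferritin chains Ftl1 (−4.63) and Fth1 (−3.76) and the metal-binding Mt1 (−4.16). All 4 hemoglobin genes were called higher in cells in this epithelial class (median −5.94), which red blood cells and not tubules make. Of 11 MHC genes 7 were called higher in cells and none higher in nuclei (22.7 and 43.9% over all genes tested, median −1.20). Among them were Cd74, the invariant chain of class II, at 284, 214 and 261 CPM in cells and 50.9, 25.7 and 25.9 CPM in nuclei (−2.87), and the class I light chain B2m at 198, 242 and 168 CPM in cells and 72.7, 52.9 and 50.0 CPM in nuclei (−1.80). The class I heavy chain H2-D1 was not called, at 188, 173 and 147 CPM in cells and 172, 119 and 129.9 CPM in nuclei (−0.27). Cd74 and the class II gene H2-Eb1 also led an unnamed nuclei cluster with macrophage markers. The part of RNA from immune cells in the MHC values was not tested.

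**Figure D3:**
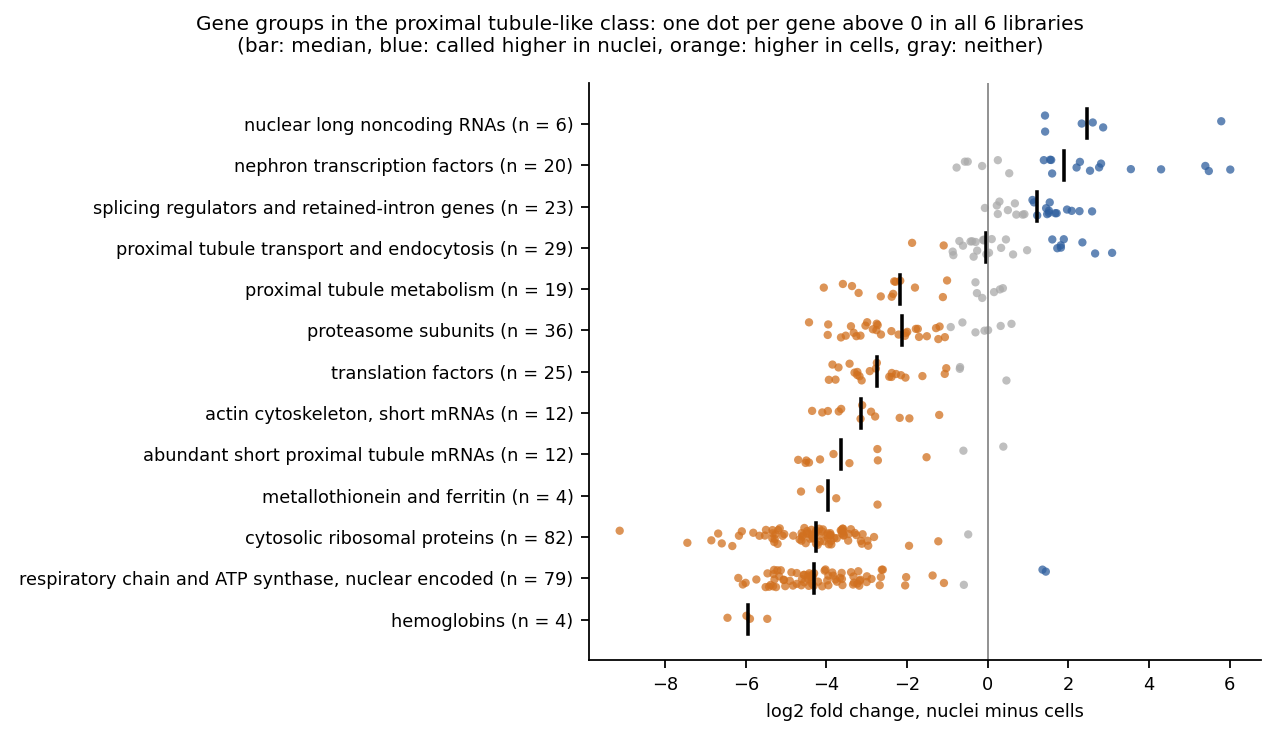
Log2 fold change, nuclei minus cells (x axis), of the genes of each list in the proximal tubule-like class, with one dot per gene above 0 in all 6 libraries and a bar at the median of the list. Blue dots were called higher in nuclei, orange dots higher in cells and gray dots neither, and the ribosomal protein list has its median at −4.26 while that of the transcription factors is at 1.90.

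The functional genes of the proximal tubule split by role. Of 30 transport and endocytosis genes 9 were called higher in nuclei and 2 higher in cells, both below the 43.9 and 22.7% of all genes tested, with a median of 0.0011 against 0.70. Among those above 0 in all 6 libraries 8 of 29 were called higher in nuclei with a median of −0.03, close to the 29.3% and the median of 0.06 of all such genes. Abcc2, an apical efflux pump for conjugated drugs, was at 53.5, 39.3 and 40.8 CPM in the cell libraries and 451, 356 and 318 CPM in the nuclei libraries (log2 fold change 3.09, standard error 0.20, adjusted p = 1.14e-08). Slc16a9 (2.67), which carries carnitine, Slc5a12 (2.35), which carries lactate, Slc47a1 (1.82), which exports cations, and Slc7a13 (1.73), which carries acidic amino acids, were called higher in nuclei. The class was not split by segment of the proximal tubule. In nuclei 2 of its 8 clusters, with 14, 18.2 and 18.4% of the class, had Cyp7b1 among their leading genes and in cells none of 8 did. Cyp7b1 itself was at 0.672 CPM in cells and 1243 CPM in nuclei of all UMIs of the class, so that this count cannot show a difference in makeup. Whether the makeup by segment differed, and its part in these values, was not tested. The endocytic receptor Cubn was at 123, 106 and 144 CPM in cells and 464, 545 and 365 CPM in nuclei (1.89) and its adaptor Dab2 at 629, 739.9 and 669 CPM in cells and 1898, 2307 and 1994 CPM in nuclei (1.6). Lrp2, which codes for megalin, the partner of cubilin, was not called, at 1063, 1346 and 1283 CPM in cells and 963, 911 and 959 CPM in nuclei (−0.38). Slc34a1, the phosphate transporter of the brush border, was at 2315, 2639.5 and 2497 CPM in cells and 3599, 3237 and 3374 CPM in nuclei and was not called (0.45), nor were the sodium-glucose transporter Slc5a2 (−0.11) and the urate transporter Slc22a12 (−0.61). The glucose transporter Slc2a2 was among those called higher in cells, at 217, 237 and 255 CPM in cells and 129, 109.6 and 93.7 CPM in nuclei (−1.09).

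Metabolic enzymes of the proximal tubule were mostly higher in cells, with 13 of 20 called beside 22.7% of all genes tested, 1 called higher in nuclei and a median of −1.99. Hadh, an enzyme of fatty acid oxidation, was at 470.2, 506 and 357 CPM in the cell libraries and 39.3, 32.5 and 38.9 CPM in the nuclei libraries (log2 fold change −3.59, standard error 0.18, adjusted p = 8.5e-10), and Acaa2, of the same pathway, had −3.37. Gatm, the first enzyme of creatine synthesis, had −3.20 and the gluconeogenic Fbp1 and Pck1 had −2.29 and −2.38. G6pc, the last step of gluconeogenesis, was not called (0.38), and neither were Acsm2 (−0.13) and Cpt1a (−0.27). The gene on this list called higher in nuclei was Ppara, the nuclear receptor that controls fatty acid oxidation, at 0, 8.63 and 0 CPM in cells and 439.9, 424 and 403 CPM in nuclei, and 2 cell libraries listed it at 0. Of the 12 abundant short mRNAs of this segment 10 were called higher in cells (median −3.63). This list was drawn up for abundant and short mRNAs. Among genes above 0 in all 6 libraries with a body of up to 5 kb, 62.1% were called higher in cells, as given below. Fxyd2, a regulator of the sodium pump, was at 17014, 20336 and 14384 CPM in cells and 780.1, 614 and 597 CPM in nuclei (−4.70), Spink1, a trypsin inhibitor, at 6942, 9239 and 8652 CPM in cells and 498, 308 and 345 CPM in nuclei (−4.43) and Gpx1, a glutathione peroxidase, at 5950.1, 6831 and 4697 CPM in cells and 307, 226 and 239.8 CPM in nuclei (−4.50). Kap, an androgen-regulated gene of the male proximal tubule, was at 21811, 23867 and 17801 CPM in cells and 3597, 3059 and 2957 CPM in nuclei (−2.72). Akr1c21 (0.39) and Ndrg1 (−0.60) were not called.

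Stress-response genes gave no uniform picture. The study drew up the 17 genes on other libraries of the series, and 10 of them were tested in the proximal tubule-like class, with 4 called higher in cells, 1 higher in nuclei (22.7 and 43.9% over all genes tested) and a median of −0.55 against 0.70. The constitutive chaperones Hsp90ab1, at 681, 915 and 546 CPM in cells and 38.8, 35.4 and 46.9 CPM in nuclei (−4.15), and Hspa8 (−3.85), the AP-1 gene Jund (−2.74) and the growth-arrest gene Btg1 (−1.36) were higher in cells. Ier3, at 0, 4.79 and 7.28 CPM in cells and 15.6, 9.01 and 13 CPM in nuclei (1.6), was higher in nuclei at low levels, and it missed the adjusted p without cells replicate 1 (1.12). The immediate-early genes Jun, at 21.7, 15.3 and 18.9 CPM in cells and 14.2, 7.65 and 13.3 CPM in nuclei (−0.63), Junb (−0.43) and Ier2 (0.83) were not called. Fos, Egr1, Hspa1a, Hspa1b and Hspb1 were below the filter on low counts, and Fosb and Atf3 were not analysed here. Of the cold-inducible genes, Rbm3 was at 132, 127 and 87.4 CPM in cells and 5.64, 5.44 and 6.27 CPM in nuclei (−4.32) and Cirbp at 110.0, 103 and 88.9 CPM in cells and 126, 112 and 129 CPM in nuclei (0.28, not called).

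Clock genes, injury markers and proliferation genes were counted in the same way. Of 14 clock genes 6 were called higher in nuclei and 1 higher in cells, with a median of 0.83, close to the 43.9% called higher in nuclei and the median of 0.70 over all genes tested. Among the 13 above 0 in all 6 libraries the counts were 5 and 1, with a median of 0.70, beside 29.3 and 28.9% and a median of 0.06 for all such genes. Rora, a nuclear receptor of the clock, was at 52.1, 65.2 and 84.5 CPM in cells and 289.9, 371 and 304 CPM in nuclei (2.26), Arntl, the core activator, at 5.79, 18.2 and 13.1 CPM in cells and 32.0, 47.1 and 58.0 CPM in nuclei (1.80), and Cry2, a repressor, had 1.69. Dbp, a clock output gene, was the one higher in cells (−1.06), and it missed the adjusted p of 0.05 without cells replicate 3 (−0.59) or nuclei replicate 2 (−0.93) and the fold without nuclei replicate 3 (−0.82). It was not called with library totals alone (−0.53, adjusted p = 0.163), with genes of low counts kept (−0.97) or with genes at 0 in any library left out (−0.99) either. Of 7 injury markers tested 3 were called higher in cells, beside 22.7% of all genes tested, among them the intermediate filament gene Krt8 (−3.03) and Spp1, which codes for osteopontin (−2.31), and 1 was called higher in nuclei, Havcr1, which codes for kidney injury molecule 1 and was listed at 0 in all cell libraries. With these zeros set to 9 UMIs in each library, Havcr1 was no longer called (0.43, adjusted p = 0.195). The third was Krt18 (−1.48), which missed the adjusted p without cells replicate 2 (−1.19) or replicate 3 (−1.36), with DESeq2 (adjusted p = 0.0533), without the filter on low counts (0.0655) and with library totals alone (0.148). Of 8 proliferation genes tested 4 were called higher in nuclei, Mki67, Cdk1 and Tpx2, which all cell libraries listed at 0, and Mcm6, which 2 of them did and which missed the adjusted p without cells replicate 2 (1.37) or replicate 3 (1.68). These genes passed the filter on low counts through the nuclei, and with zeros set to 9 UMIs none of the 4 was called higher in nuclei. Mki67 (0.70, adjusted p = 0.104), Cdk1 (−0.51, 0.241) and Mcm6 (−0.62, 0.144) were then not called, and the value of Tpx2 (−1.34) is set by the 9 UMIs written into each cell library. The 3 called higher in cells, again beside 22.7%, were Pcna (−3.18), Stmn1 (−3.03) and Hmgb2 (−1.81).

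The difference between nuclei and cells followed the length of a gene. Among 8693 genes above 0 in all 6 libraries that were tested in the proximal tubule-like class and matched to the annotation, the median log2 fold change was −1.63 for 939 genes with a body of up to 5 kb and 2.85 for 400 genes longer than 200 kb. The bins in between were ordered, with −1.08 for 5 to 10 kb, −0.55 for 10 to 20 kb, 0.12 for 20 to 50 kb, 0.94 for 50 to 100 kb and 1.62 for 100 to 200 kb. Of the shortest genes 5.01% were called higher in nuclei and 62.1% higher in cells, and of the longest 91.5% and 1.5%. Across genes, Spearman's rho of the fold change was 0.588 with body length, 0.534 with exon length and 0.383 with the share of introns in the body. The points of this description share their libraries and the counting of introns in nuclei alone. The rho with body length was 0.609 in the thick ascending limb-like class, 0.658 in the distal convoluted tubule-like, 0.676 in the connecting tubule-like, 0.72 in the principal cell-like, 0.631 in the intercalated cell-like, 0.772 in the endothelial-like and 0.722 in the podocyte-like class.

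**Figure D4:**
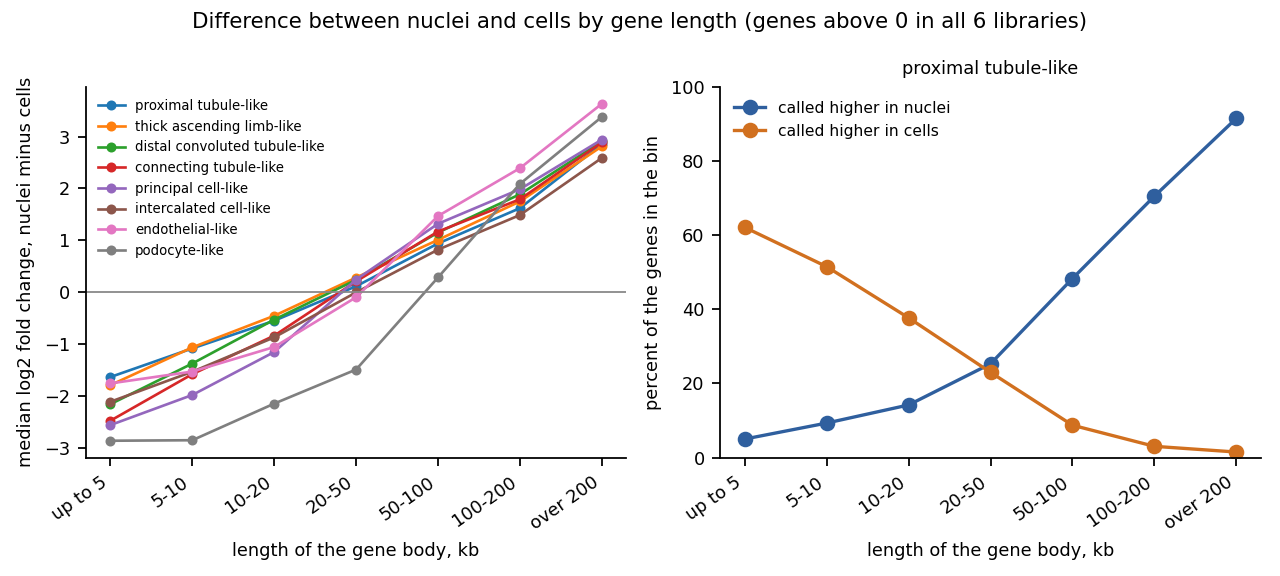
Median log2 fold change, nuclei minus cells, by length of the gene body in kb for each class (one panel) and the percent of genes in each length bin called higher in nuclei or higher in cells in the proximal tubule-like class (other panel), over genes above 0 in all 6 libraries. Medians go from −1.63 for the shortest to 2.85 for the longest genes of the proximal tubule-like class.

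Overlapping genes stood apart in a further way. Of the genes listed at 0 in all nuclei libraries but not in cells, 61.5% had over 50% of their exon bases inside the body of another gene on the same strand, compared with 1.66% of the genes above 0 in at least 1 nuclei library. Cox4i1, a subunit of cytochrome c oxidase, Rpl13, a ribosomal protein gene, and Map1lc3b, which marks autophagosomes, lie in the annotated body of Gm20388, Ndufa13 lies in Yjefn3, and Chchd2 in Phkg1. A zero of these genes in nuclei cannot be read as absence of their RNA, and no fold is given for them. The part of the overlap in the zeros was not tested beyond these shares. Without all genes overlapped in this way every count of calls per class stayed within 1.5 times its value.

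Each of the other 7 classes showed genes higher in nuclei and genes higher in cells in large number. In the thick ascending limb-like class 7482 genes were tested, with 2690 called higher in nuclei (36.0%) and 1679 higher in cells (22.4%). In the distal convoluted tubule-like class the counts were 2026 (38.5%) and 1294 (24.6%) of 5259 genes, in the connecting tubule-like class 2074 (41.9%) and 1346 (27.2%) of 4952, and in the principal cell-like class 1961 (44.0%) and 1321 (29.6%) of 4461. In the intercalated cell-like class they were 2054 (35.7%) and 1688 (29.3%) of 5761, and in the endothelial-like class 677 (40.0%) and 601 (35.5%) of 1691. The podocyte-like class, with 19 to 40 nuclei per library, had 316 (28.4%) and 601 (53.9%) of 1114 genes and a median of −1.49. Leaving out any nuclei library lowered the counts higher in nuclei to between 1440 and 1498 in the thick ascending limb-like class and between 912 and 941 in the distal convoluted tubule-like class, where the filter on low counts then tested 3317 to 3388 and 2036 to 2066 genes. Counts higher in cells became 1067 to 1110 and 689 to 716. In the endothelial-like class the count higher in nuclei was 1147 without cells replicate 3 and 1017 without nuclei replicate 2, and in the podocyte-like class 512 without nuclei replicate 2 and 572 without nuclei replicate 3.

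The same lists were counted in the other classes. Ribosomal protein genes had a median of −3.89 in the thick ascending limb-like, −3.56 in the distal convoluted tubule-like, −4.0 in the connecting tubule-like, −4.42 in the principal cell-like, −4.03 in the intercalated cell-like, −2.54 in the endothelial-like and −3.76 in the podocyte-like class, and none was called higher in nuclei in any of them. For the respiratory chain and ATP synthase the medians of these 7 classes ran from −4.05 in the distal convoluted tubule-like to −1.84 in the endothelial-like class. Every nuclear long noncoding RNA tested was called higher in nuclei in each of the 8 classes, beside 28.4 to 44.0% of all genes tested in a class. Transcription factor genes were called higher in nuclei in 18 of 22 cases in the thick ascending limb-like (36.0% over all genes of the class), 17 of 23 in the distal convoluted tubule-like (38.5%), 17 of 22 in the connecting tubule-like (41.9%) and 17 of 20 in the principal cell-like class (44.0%). The counts were 13 of 22 in the intercalated cell-like (35.7%), 7 of 8 in the endothelial-like (40.0%) and 4 of 6 in the podocyte-like class (28.4%), and 1 was called higher in cells in each of the thick ascending limb-like, connecting tubule-like and podocyte-like classes. Only genes tested in all 8 classes could be called in all, at most the 1114 genes tested in the podocyte-like class. Of those 1114 genes 28.4% were called higher in nuclei and 53.9% higher in cells in that class. In all 8 classes 146 genes were called higher in nuclei and 407 higher in cells, and 115 and 370 of them were above 0 in all 6 libraries. Among the former were Gphn, a scaffold of inhibitory synapses (4.6 in the proximal tubule-like class), Ambra1, a regulator of autophagy (4.53), Vti1a, a vesicle fusion protein (4.04), and Pard3b, a polarity protein (5.16). Among the latter were Sec61g, a subunit of the translocon (−6.43), Ndufb8, a subunit of complex I (−6.07), and the ribosomal Rpl23a (−6.33).

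In the thick ascending limb-like class, 6 of 12 genes of its own function were called higher in cells and 2 higher in nuclei (22.4 and 36.0% over all genes), with a median of −0.84 against 0.53 over all genes tested. Umod, which codes for uromodulin, the most abundant protein of normal urine, was at 19962, 22610.0 and 15719 CPM in the cell libraries and 3927, 2328 and 2500.0 CPM in the nuclei libraries (log2 fold change −2.74, standard error 0.24, adjusted p = 9.01e-12). The paracellular cation channels Cldn16 (−1.76) and Cldn10 (−1.48), the chloride channel subunit Bsnd (−1.06) and the potassium channel Kcnj1 (−1.16) were also higher in cells. Slc12a1, the sodium-potassium-chloride cotransporter that loop diuretics block, was at 10368, 10185 and 8982 CPM in cells and 16075, 13851 and 14140.0 CPM in nuclei and was not called (0.58, adjusted p = 0.0146). Ptger3, a prostaglandin E2 receptor, was higher in nuclei, at 258, 385 and 235 CPM in cells and 593, 885 and 635 CPM in nuclei (1.23).

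In the distal convoluted tubule-like class, 5 of 16 genes of the list for salt and calcium transport were called higher in nuclei and 4 higher in cells (38.5 and 24.6% over all genes, median −0.07 against 0.62). Among the 13 above 0 in all 6 libraries 2 were called higher in nuclei and 4 higher in cells, beside 34.6 and 25.9% of all such genes, so that the balance turned. Slc12a3, the thiazide-sensitive sodium chloride cotransporter that defines this segment, was at 8627, 8912 and 9878 CPM in the cell libraries and 22525, 23064 and 23283 CPM in the nuclei libraries (log2 fold change 1.33, standard error 0.26, adjusted p = 1.03e-05). Stk39, the kinase that phosphorylates this cotransporter, was at 99.7, 148 and 142 CPM in cells and 548, 691 and 549.6 CPM in nuclei (2.17). The calcium-binding proteins were on the other side, with Pvalb at 3765, 5022 and 3970.0 CPM in cells and 265, 264 and 193 CPM in nuclei (−4.14), Calb1 at 6657, 9831 and 6073 CPM in cells and 647, 992 and 1094 CPM in nuclei (−3.05) and S100g at −5.16. The kinases Wnk1 (−0.06) and Wnk4 (−0.15) were not called. In the connecting tubule-like class the same list gave 5 and 4 of 17 called (41.9 and 27.2% over all genes). Of the 14 above 0 in all 6 libraries 2 and 4 were called (38.5 and 28.4% of all such genes). Stk39 was at 1.98, S100g at −5.25 and Calb1 at 4929, 8937 and 7837 CPM in cells and 330.4, 511 and 679.7 CPM in nuclei (−3.84). Kcnj10, a basolateral potassium channel, was called higher in cells in both classes (−1.40 and −1.14), but its exons overlap another gene.

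In the principal cell-like class, 6 of 14 genes of the list were called higher in cells and 2 higher in nuclei (29.6 and 44.0% over all genes, median −0.53 against 0.61). The water channels were higher in cells, with Aqp2, which vasopressin moves to the apical membrane, at 25017, 23130.0 and 12215 CPM in the cell libraries and 2709.9, 2943 and 1765 CPM in the nuclei libraries (log2 fold change −3.02, standard error 0.30, adjusted p = 5.22e-10) and Aqp3 at 1972, 2317 and 2048 CPM in cells and 306, 283 and 292 CPM in nuclei (−2.84). Hsd11b2 (−1.93), which keeps glucocorticoids away from the mineralocorticoid receptor, Kcnj1 (−2.47), Fxyd4 (−2.45) and the aldosterone-induced kinase Sgk1 (−1.08) were on the same side. Higher in nuclei were Nr3c2, the mineralocorticoid receptor itself, at 49.3, 78.4 and 35.3 CPM in cells and 1302, 1302 and 1223 CPM in nuclei (4.42), and Nedd4l, a ligase that removes sodium channels from the membrane, at 37.0, 61.0 and 247 CPM in cells and 1086, 1391 and 1260.0 CPM in nuclei (3.65). The sodium channel subunit Scnn1b was not called (0.50).

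In the intercalated cell-like class, 4 of 15 genes of the list were called higher in nuclei and 5 higher in cells (median −0.36 against 0.26), close to the 35.7 and 29.3% of all genes of the class. The bicarbonate exchangers were divided. Slc26a4, known as pendrin and the apical exchanger of type B cells, was at 656, 791 and 1140.2 CPM in the cell libraries and 4191, 4807 and 3834 CPM in the nuclei libraries (log2 fold change 2.32, standard error 0.22, adjusted p = 1.16e-10), and Slc4a9, also of type B cells, at 268, 365 and 798 CPM in cells and 1997, 2032 and 2409 CPM in nuclei (2.21). Slc4a1, the basolateral exchanger of type A cells, was at 626, 601 and 513 CPM in cells and 159, 92.8 and 170.2 CPM in nuclei (−2.05). Subunits of the proton pump were divided too, with Atp6v0a4 at 1.84 and Atp6v1g3 at 10457, 14763 and 14158 CPM in cells and 1185, 1244 and 1059.7 CPM in nuclei (−3.50). Aqp6 (−2.61) and Car2 (−1.84) were higher in cells and Car12 (1.32), another carbonic anhydrase, was higher in nuclei. The class pooled 2 clusters in each preparation. The one with Slc26a4 among its 10 leading genes held 43.2, 52.1 and 60.8% of the class in cells and 66.9, 69.3 and 63.3% in nuclei. It was picked by Slc26a4, which was itself higher in nuclei, so that this count cannot show a difference in makeup. Whether the makeup of the class differed, and its part in these values, was not tested.

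In the podocyte-like class, the list of podocyte function went against the rest of the genes, with 10 of 18 called higher in nuclei and 1 higher in cells (28.4 and 53.9% over all genes) and a median of 1.45 against −1.49. Magi2 was at 1181, 1187 and 1091 CPM in the cell libraries and 92043, 96748 and 88215 CPM in the nuclei libraries (log2 fold change 6.32, standard error 0.21, adjusted p = 7.8e-18). Of all UMIs of the class, without TMM scaling, Magi2 had means of 753 CPM in cells and 48770 CPM in nuclei. Robo2 (3.38), a guidance receptor, the phospholipase Plce1 (3.36), the collagen chains Col4a3 (1.6) and Col4a4 (1.82) of the glomerular basement membrane and the phosphatase Ptpro (1.74) were also higher in nuclei. Nphs1, which codes for nephrin, was at 1439, 2227 and 1889 CPM in cells and 2867, 4115 and 3277 CPM in nuclei (0.87) and was not called. In the endothelial-like class 4 of 16 listed genes were called higher in nuclei and 3 higher in cells (median 0.62 against 0.09), both below the 40.0 and 35.5% of all genes of the class. Higher in nuclei were Flt1, a receptor for vascular endothelial growth factor, at 828, 686 and 382 CPM in cells and 2539, 2831 and 2769 CPM in nuclei (2.04), the angiopoietin receptor Tek (1.66), Pecam1 (1.35) and Eng (1.03). Higher in cells were Pi16 (−2.37), Ehd3 of glomerular capillaries (−1.08) and Egfl7, which overlaps another gene.

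**Figure D5:**
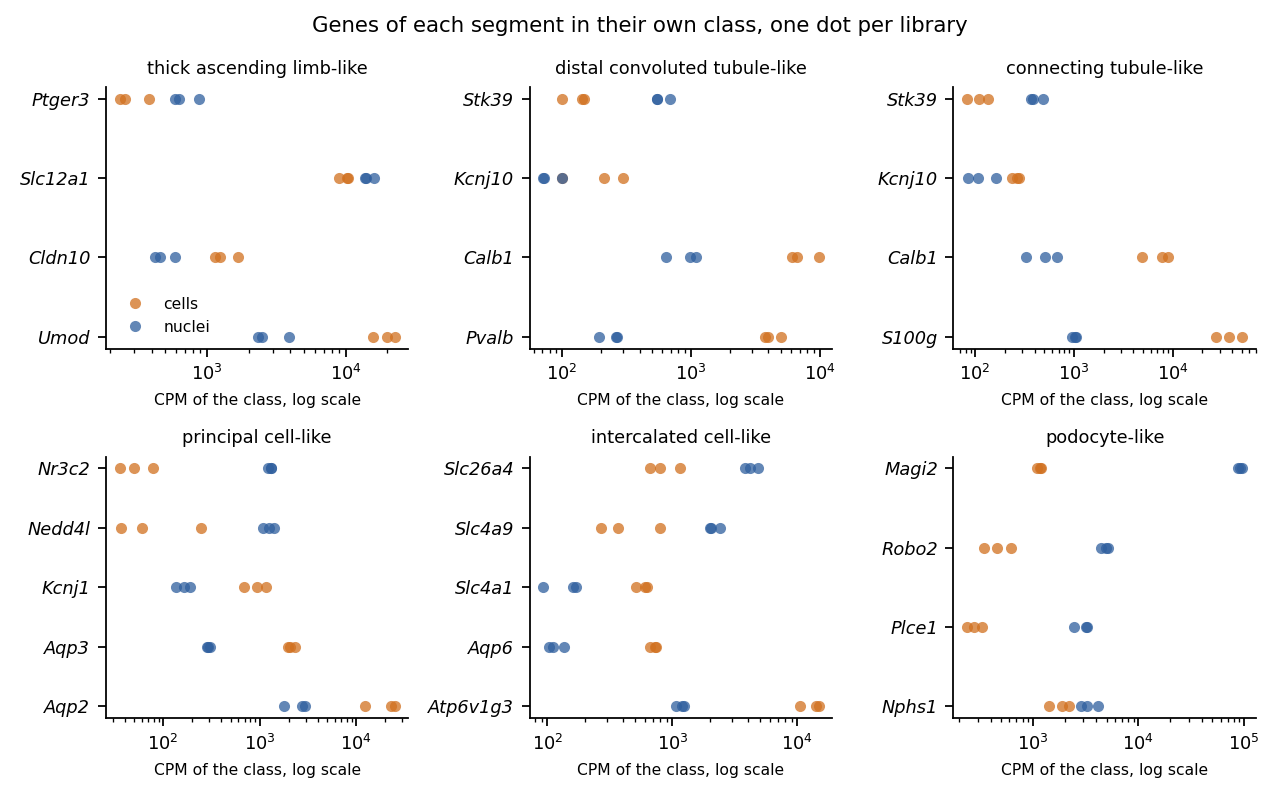
CPM of the genes tested in the class after TMM scaling (log scale on the x axis) for genes of each segment in their own class, one panel per class and one dot per library. In the principal cell-like panel Nr3c2 and Nedd4l lie higher in nuclei and Aqp2 and Aqp3 higher in cells, and in the podocyte-like panel Magi2 lies higher in nuclei.

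Each class also held called genes that were not called in the proximal tubule-like class. Several of those higher in nuclei are known as genes of the proximal tubule, among them G6pc (4.66) and Slc5a2 (3.71) in the thick ascending limb-like, Slc22a12 (4.4) and Slc6a19 (3.99) in the distal convoluted tubule-like, Amn (4.25) and Slc13a3 (3.59) in the connecting tubule-like and Slc34a1 (3.75) in the podocyte-like class. Higher in cells were Cldn8 (−3.72 in the thick ascending limb-like and −4.57 in the intercalated cell-like class), a claudin of the collecting duct, S100a6 (−5.34) in the principal cell-like, Klk1, the kallikrein gene of the connecting tubule (−3.75 in the distal convoluted tubule-like and −4.39 in the connecting tubule-like class), and the interferon-induced Ifi27l2a (−3.89) in the endothelial-like class.

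RNA of other cell types was present in the classes of both preparations and moved with these results. In this paragraph CPM refers to all UMIs of a class, without TMM scaling. Slc34a1 had means of 2059 CPM in cells and 4076 CPM in nuclei of the proximal tubule-like class, and from 80 to 288 CPM in cells and 940 to 1311 CPM in nuclei of the 7 other classes. Lrp2 had 1020 CPM and 1132 CPM in the proximal tubule-like class and 31 to 93 CPM and 235 to 347 CPM elsewhere. These proximal tubule genes were thus higher in the nuclei of classes that should lack them. Over the other named classes together, the 12 short proximal tubule mRNAs summed to 1.24, 1.73 and 1.93% of the UMIs in cells and 1.09, 0.667 and 0.739% in nuclei (exact two-sided permutation test, p = 0.1, the smallest possible). This did not hold in each class or for each gene. The means were 0.956% in cells and 0.778% in nuclei of the principal cell-like class (exact p = 0.4) and 0.611 and 0.730% in the podocyte-like class (exact p = 0.5), and Kap alone had a mean of 0.176% in cells and 0.251% in nuclei over these classes (exact p = 0.3). Hemoglobin genes took a mean of 0.520% of those UMIs in cells and 0.0119% in nuclei (exact p = 0.1). The part of such RNA in the differences of each class was not tested.

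A second comparison of nuclei and cells in the series used female Balb/c mice, 15 weeks old and former breeders, with 10x chemistry version 3 and the same nuclei protocol. Sex, age, chemistry and batch differ together from the males and cannot be told apart. In its proximal tubule-like class 4234 of 12386 genes were called higher in nuclei (34.2%) and 3897 higher in cells (31.5%). Over the 11054 genes tested in both, 3339 were called higher in nuclei in both, which is 75.8% of the male and 88.9% of the female list, and 36 of the male list were called the opposite way in females. Higher in cells in both were 2421 genes, 92.8% of the male and 68.4% of the female list, with 2 called the opposite way. Females had 81 of 83 ribosomal protein genes and 78 of 81 respiratory chain genes called higher in cells, with medians of −6.56 and −5.67, and 9 of 9 long noncoding RNAs called higher in nuclei. Of 28 transcription factor genes 17 were called higher in nuclei and 4 higher in cells there. The libraries of the females share none with those of the males.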

How the data were processed

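The authors aligned reads to mm10 with Cell Ranger 2.1.1 (submitters' processing notes), over exons for cells and over introns and exons for nuclei. EmptyDrops called the barcodes, which were then filtered on genes, mitochondrial share and, for nuclei, UMIs. The methods of the study name the removal of mitochondrial genes for nuclei, but the tables of cells and of nuclei alike list 0 mitochondrial genes. Totals and CPM values of both thus leave them out. The deposited values are unnormalized UMI counts for each gene in each barcode. By the methods of the study, genes in at least 10 barcodes were kept, and from 97.13 to 98.77% of the genes above 0 in a library met this in the tables. No column of another sample was used (0 of them).

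Barcodes were clustered separately for cells and nuclei with the Leiden method (scanpy 1.11.5, leidenalg 0.10.2, Python 3.11.15) at resolution 2, on 2000 variable genes, 30 components and 20 neighbors. To carry a name, a cluster needed 3 or more markers of 1 class, seen in a share of 0.1 or more of its barcodes at a fold of 1.5 or more. Clusters with markers of another lineage were left unnamed, a rule set after the data were seen. Doublets were marked (49, 77 and 102 cells, 593, 466 and 463 nuclei) and kept. The 3 nuclei libraries shared 80 to 101 barcodes with each other (1.05 to 1.32% of the smaller), and no other pair shared any.

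For UMI sums per library and class, edgeR 4.0.16 (R 4.3.3) was run with TMM, filterByExpr and its quasi-likelihood test. Numbers of barcodes per class went through the same test without TMM or filterByExpr, with the barcodes of the library as library size. Benjamini-Hochberg adjustment was made over the genes or classes tested, and single values were compared with exact permutation tests. The standard error is the size of the unshrunk log2 fold change divided by the square root of F. The study took 3 mice per group, and the labels do not tie a cell library to a nuclei library. The p-values measure the spread between these libraries.

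The genes named were the listed members with the largest changes (up to 4 per direction), 10 per direction in the proximal tubule, 10 called in most classes and 3 per direction in each other class, with a mean of at least 50 CPM. Values were given mostly for genes above 0 in all 6 libraries, and other members of a list were named for their role. A few members of the lists are counted but not reported here by name. Members and lists were chosen with earlier results of these data known. Of 16524 symbols 15956 (96.6%) matched GENCODE M21. The sums of markers over libraries, the fits without genes at 0 or with such genes set to 9 UMIs, without overlapped genes and with mixed clusters kept were added after the data were seen.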

Additional observations from a re-analysis of the deposited data

Results flagged for a closer look

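Among the genes picked by the naming rules and above 0 in all 6 libraries, 4 differed in direction between classes on the TMM-scaled values. Other tested genes were not searched for this. In one class every nuclei library lay above every cell library and in the other class below, and the difference between classes was not tested. Aqp2, the water channel of principal cells, was higher in nuclei of the thick ascending limb-like class, at 15.2, 19.7 and 44.0 CPM in cells and 164, 111 and 78.4 CPM in nuclei (log2 fold change 2.21). In the intercalated cell-like class Aqp2 was at 1774, 1175 and 694 CPM in cells and 107, 122 and 55.3 CPM in nuclei (−3.68). Cldn10, a claudin of the thick ascending limb, was higher in nuclei of the distal convoluted tubule-like class (2.34, with 0 CPM in 1 cell library) and higher in cells of the thick ascending limb-like class (−1.48). Scnn1a, a subunit of the epithelial sodium channel, was at 0, 0.958 and 2.91 CPM in cells and 16.9, 17.0 and 18.3 CPM in nuclei of the proximal tubule-like class (3.77) and was higher in cells of the intercalated cell-like class (−1.08). Umod was higher in nuclei of the endothelial-like class, at 200.2, 268 and 500.0 CPM in cells and 956, 932 and 717 CPM in nuclei (1.56), and higher in cells of the thick ascending limb-like class (−2.74). Of all UMIs of the endothelial-like class, without TMM scaling, Umod was at 133, 185 and 428 CPM in cells and 525, 494 and 371 CPM in nuclei, and these overlap. In each pair the gene is at a low level in a class where it is not known to act, and the part of RNA from other cell types was not tested.

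No macrophage-like class was named in nuclei, but 1 unnamed nuclei cluster of 50 barcodes (30, 5 and 15 in the nuclei libraries) held macrophage markers. C1qa was in 26.0% of its barcodes and in 0.336% of the other nuclei, C1qb in 24.0 and 0.235% and C1qc in 18 and 0.155%, and its leading genes were Lyz2, H2-Eb1 and Cd74. None of the 50 was marked as a doublet. It stayed unnamed because markers of the proximal tubule passed as well.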

How the results depend on the processing

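No paired analysis was possible because the labels give the replicates of cells and of nuclei no shared number or mouse. Among 134 named genes of the proximal tubule-like class, 1674 of 1718 values under the alternatives kept direction and side of the adjusted p of 0.05, and 14 genes crossed it in at least 1. With library totals alone Cldn10 (0.092) and Emx1 (0.070) changed sign, and Mcm6 (−0.62), Cdk1 (−0.51) and Tpx2 (−1.34) did with genes at 0 set to 9 UMIs. Hnf4a (−0.02), Maf (−0.22) and Dbp (−0.53) were closer to 0 with totals alone. Scaling by totals moved the median of all genes of the proximal tubule-like class by 0.56 (between −0.11 and 0.20 in the other classes), and RLE size factors moved it by 0.26 in the distal convoluted tubule-like and 0.25 in the endothelial-like class. Counts of genes higher in nuclei of the proximal tubule-like class became 2776 without genes at 0 in any library and 3377 with such genes set to 9 UMIs, where higher and lower calls were about even, and 2708 instead of 6381 in library sums. With the thresholds of the study, which change both the fold and the share of barcodes asked for, 93 genes were higher in nuclei and 80 higher in cells in that class, and 304 and 617 pairs of gene and class in place of 17121 and 11279. Without a filter on low counts, 28715 pairs were higher in nuclei. By marker score 5 classes were higher and 2 lower, where clusters gave 3 and 6. Among the 5 were macula densa, urothelium and adipocyte, names that no cell could carry. Thinned to 500 and 1000 UMIs, which also left out shallower barcodes, the difference in genes per barcode was 17 and 53 in place of 317, and at 1000 UMIs 16.1, 28.0 and 0.615% of the cells (22 barcodes in replicate 3) entered. DESeq2, RLE size factors, resolution 1 and removal of doublets left each count of calls they gave within 1.5 times, but resolution 1 gave none for the endothelial-like class. Keeping mixed clusters moved the counts of that class from 677 and 601 to 2542 and 1573. Taking genes listed in any library gave no other value, since the 6 tables list the same genes.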

Other observations

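Markers of cell types without a class of their own in both preparations were also summed over whole libraries. Over all genes tested in library sums 45.5% were called higher and 20.4% lower in nuclei. Thin limb markers summed to 415, 362 and 296 CPM in cells and 82.3, 76.1 and 64.8 CPM in nuclei, and of 5 tested 3 were called lower and 1 higher in nuclei, although by marker score the thin limb share did not pass the test (log2 fold change 0.54, adjusted p = 0.0611). Urothelium markers were listed at 0 in all cell libraries and summed to 32.6, 20.7 and 16.1 CPM in nuclei, and adipocyte markers were also listed at 0 in cells and summed to 22.9, 14.5 and 11.3 CPM in nuclei. Since genes in fewer than 10 barcodes of a library were mostly written as 0, these zeros allow a few cells of such types. Parietal epithelium markers summed to 44.4, 34.2 and 55.0 CPM in cells and 100.1, 79.7 and 89.1 CPM in nuclei, with 1 of 5 called higher in nuclei. Mesangial and mural markers gave no common direction, with 5 of 10 called higher and 3 lower in nuclei. Their sums were higher in each nuclei library, at 73.6, 54.8 and 74.9 CPM in cells and 140.7, 84.9 and 96.1 CPM in nuclei, whereas by marker score the share was lower in nuclei (log2 fold change −1.5, adjusted p = 0.00059).

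An unnamed nuclei cluster of 220 barcodes (93, 66 and 61 in the nuclei libraries) was led by Apela, Cdh6 and Nupr1. Too few markers of any listed class passed in it for a name (Apela is on the principal cell list and Bst1, also among its leading genes, on the thin limb list), and its median of 624 UMIs was below that of the nuclei libraries.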
